A study of Saccharomyces cerevisiae with 3 samples.

Results

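Open chromatin at the genes of a budding yeast strain without SBA1 was compared with that of its wild-type parent. In DNase-seq, nuclei are digested lightly with DNase I and the cut ends are sequenced; stretches with many cuts, where DNA is not packed into nucleosomes, are listed as hypersensitive sites. The members described are all nuclear sites that touch a protein-coding gene or the 500 bp upstream of its start codon. These were 2850 of the 3260 sites listed for wild type and 2160 of the 2439 listed for the sba1 deletion, out of 8761 sites in the 3 lists of the series. They were laid over 6002 protein-coding genes of the 16 nuclear chromosomes, and the mitochondrial site of each list was left out. The strains are BY4741 (MATa), genotype wild type, and an sba1-/- isolate of that background bought from a supplier. Cultures of both were in YPD with glucose and were taken at one optical density. The third strain of the series, gcn5-/-, lacks the acetyltransferase Gcn5 and is used below only for values set side by side. Each strain has 1 library, so there is no replicate check on any difference and no test between strains.

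Sba1, the p23 protein of yeast, is a co-chaperone that binds Hsp90 in its ATP-bound state and helps it hold and release client proteins. p23 also acts in the nucleus, where it can take transcription factors and other proteins off DNA. In growing yeast, open chromatin typically lies in the nucleosome-depleted stretch just upstream of a gene's start, while the gene body is wrapped in regularly spaced nucleosomes. A site in the upstream window is therefore called a promoter site below, and coding coverage is the percentage of the bases from start to stop codon, introns included, that lie under listed sites.

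The deleted genes were looked at first. SBA1 (YKL117W, chromosome XI 220324 to 220974) had no wild-type site in its coding sequence, and 1.84% of it was covered in the sba1 deletion, so its absence could not be read from the lists. Its promoter window held a site in both, over 432 bp in wild type against 500 bp in the sba1 deletion. LEU2, URA3 and MET17, which BY4741 lacks, had no promoter or coding base under a site in either list. HIS3, part of which BY4741 lacks, had 35.4% of its bases covered without SBA1 and 17.9% in wild type. These values do not go against the labels, but 47.4% of all genes in wild type against 53.6% in the sba1 deletion had neither promoter nor coding bases under a site. The depth of each library is unknown, since the lists give a score per site and no read counts. A site open in fewer cells and one less open in each cell cannot be told apart.

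As listed, fewer genes carried a promoter site in the sba1 deletion, and mean coding coverage was higher there. Both directions depend on how the lists are drawn. The wild-type list is longer, with 3259 nuclear sites against 2438, and its sites are narrower, with a median width of 247 bp against 350 bp. The gcn5 deletion list is nearer to wild type in both, with 3061 nuclear sites of median width 261 bp. With equal numbers of best-scored sites, a promoter site lay at 2180 genes of wild type and 2320 of the sba1 deletion. The direction for coding bases did not turn there, and the ratio of covered coding bases in the sba1 deletion to wild type was 1.95. With every site set to 250 bp, the ratio of covered coding bases in the sba1 deletion to wild type was 0.906 in place of 1.79. That setting left the numbers of sites unequal, so the shorter list alone lowers the ratio there. A promoter site was present at 2595 genes in wild type, or 43.2% (exact 95% interval 42.0 to 44.5, counting over genes only), and at 2320 in the sba1 deletion, or 38.7% (37.4 to 39.9). Any coding base was covered at 2019 and 1930 genes. Genes covered over their whole length numbered 137 in wild type against 328 in the sba1 deletion. Mean coding coverage was 8.08% in wild type against 13.7% in the sba1 deletion, a mean difference of 5.64 percentage points, while the median difference over all genes was 0. Coverage was higher at 1438 genes, lower at 1236 and equal at 3328, of which 3205 had no coding base under a site in either list.

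The extra coverage lay inside the gene and in the far part of the upstream window and beyond it, while the stretch just before the start codon differed little. In wild type 26.8% of genes were under a site at the peak of the profile, 140 bp upstream of the start codon. The sba1 deletion peaked at the same distance with 26.1%. At 200 bp inside the gene the share was 8.20% in wild type against 14.8% in the sba1 deletion, and at 500 bp inside it was 7.20% and 14.1%. Within the window, the share at 400 bp before the start codon was 19.8% in wild type against 24.7% in the sba1 deletion, and at 200 bp before it 26.3% against 25.9%. Further upstream, at 800 bp before the start codon, it was 14.8% and 21.8%. Around the stop codon, wild type had a second, lower maximum, with 15.0% of genes covered 200 bp downstream of the stop and 6.86% covered 200 bp before it. The sba1 deletion was nearly flat there, at 13.6% and 12.3%. Along the coding sequence cut into 10 equal parts, the ratio of mean coverage in the sba1 deletion to wild type was 1.27 in the first part and 1.49 in the last. It lay between 1.62 and 1.92 in the parts between. The gcn5 deletion, set against the same wild-type list, had 8.31% of genes covered 200 bp inside the gene and 15.0% covered 200 bp past the stop.

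**Figure D1:**
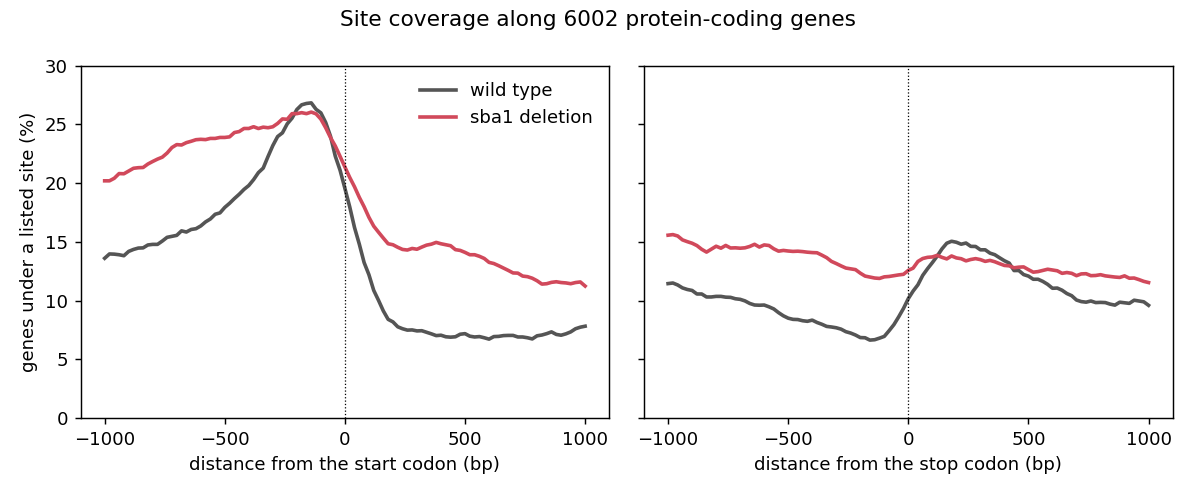
Percentage of the 6002 genes under a listed site (y axis) at each distance in bp from the start codon (left) and the stop codon (right) in wild type (grey) and the sba1 deletion (red), 1 library each. The curves meet near 26% just upstream of the start codon and part inside the gene, where 200 bp in the values are 8.20% and 14.8%.

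The promoter site was lost in the sba1 deletion at 947 of the 2595 genes that had one in wild type, or 36.5% (34.6 to 38.4). Of the 3407 genes without one, 672 or 19.7% (18.4 to 21.1) had one there. Against the same wild-type list, the gcn5 deletion, whose list is nearer to wild type in length and site width, lost it at 14.0% and gained one at 11.9%. The promoter sites lost were small in wild type, with a median of 168 bp of the window covered against 314.5 bp at the 1648 genes that kept a site. Their wild-type scores ranked low as well, above a median of 39.3% of that list against 78.7% for those kept. Of the 947 losses, 225 or 23.8% took away 250 bp or more. Among the 1648 kept promoters, covered window bases were higher at 665, lower at 692 and equal at 291 in the sba1 deletion, so kept promoters moved in both directions about equally often. Gained promoter sites covered a median of 278 bp, and at 417 of the 672 genes, or 62.1%, the gene's own coding sequence had covered bases in the sba1 deletion too.

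The largest promoter losses, counted in bases outside any coding sequence, emptied whole windows. LOC1, which acts in ribosome assembly and messenger RNA localisation, had all 500 bp covered in wild type by a site at chromosome VI 148224 to 149130, above 88.4% of that list. In the sba1 deletion its window and coding sequence held no site. The window of the protein kinase gene YPL150W went from 500 to 0 bp, with a wild-type site at chromosome XVI 267648 to 268295. MAK32 on chromosome III lost a site of 1060 bp that had covered its whole window. PRO1, whose enzyme starts proline synthesis, lost a site at chromosome IV 1062716 to 1063338. HGH1, a chaperone of translation elongation factor 2, and CTK1, a kinase of the RNA polymerase II tail, went from 500 to 0 bp as well. MET18, which acts in iron-sulfur protein assembly, went from 495 to 0 bp, and COG6, a subunit of a Golgi tethering complex, from 500 to 0 bp. At YER181C the window emptied too, while 56.5% of its coding sequence stayed covered, against 100% in wild type.

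The largest promoter gains lay under sites of 1053 bp or more, while the sites of the losses above reached 1086 bp, at YER181C. Both sets were picked for the most window bases, and over all 672 gains a median of 278 bp was covered. YHL026C and SNF6, a subunit of the SWI/SNF chromatin remodeller, are divergent neighbours and share a 2879 bp site at chromosome VIII 53732 to 56610 that filled both windows in the sba1 deletion. In wild type neither window held a site, although SNF6 itself was covered at 87.0% by a site of 1104 bp. SEC23, a component of the COPII vesicle coat, and SMX3, a core protein of the splicing ribonucleoproteins, likewise share a site of 4110 bp at chromosome XVI 898422 to 902531. SMX3 went from 0% to 100% coding coverage under it. NCP1, the reductase that serves cytochrome P450, gained a full window under a site of 3159 bp. The windows of PRY1, RTS3, the phosphatase gene PTP3 and YGR146C-A went from 0 to 500 bp under sites of 6038, 1968, 1717 and 1053 bp. HPF1, a cell wall mannoprotein gene, completed these with a site of 2003 bp. Most of these windows were also covered in the gcn5 deletion, against the same wild-type list. Those of HPF1, NCP1 and RTS3 held 500 bp there. Those of YGR146C-A, SMX3, SEC23, PTP3 and SNF6 held 395, 290, 264, 250 and 175 bp, and SMX3 was at 100% coding coverage. The windows of YHL026C and PRY1 held no site in the gcn5 deletion.

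Coding coverage was higher by 50 percentage points or more at 394 genes, 6.56% of the 6002, and lower by as much at 49, or 0.816%. With every site set to 250 bp both counts were 55. A single site of that width covers only a small part of a gene of 822 bp, the median length of the 394. With sites over 1 kb left out the counts were 156 and 97. The size of the excess of higher over lower genes thus depended on wide sites, though an excess remained without those over 1 kb. The gcn5 deletion gave 0.600% and 0.167% against the same wild-type list. Of the 394 genes, 245 had no coding base under a site in wild type, and 78 went from 0% to 100%. The reverse, from 100% to 0%, was seen at 10 genes.

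In covered coding bases the largest increase was at HPF1 (YOL155C, chromosome XV 28703 to 31606), from 0 to 2390 bp, or 82.3% of the gene, under 3 sites. ADE3, a folate enzyme of purine synthesis, went from 247 to 2418 bp. Its wild-type promoter site of 1588 bp was replaced by one of 4211 bp at chromosome VII 904028 to 908238, which ran on into the gene. With a second site of 113 bp inside it, 85.1% of the gene was covered. GUT1, glycerol kinase, went from 0% to 96.2% under a site of 2049 bp that lies within the gene. ACS1, the acetyl-CoA synthetase that glucose represses, went from 0% to 90.5%, and TKL2, the minor transketolase, from 0% to 85.8%. RSC8, a subunit of the RSC chromatin remodeller, was at 0% in wild type and wholly covered in the sba1 deletion, by a site of 5642 bp at chromosome VI 223999 to 229640. The vacuolar protease gene PRB1 went from 8.02% to 93.3%, GFD2 from 0% to 92.4%, PRY3 from 39.6% to 100% and FMP40 from 0% to 78.4%. PAN1 and SLA1, which act together in endocytosis at actin patches, went from 0.158% to 45.6% and from 7.66% to 50.5%. FMP40 is the exception in having no promoter site in either list, since both of its sites begin inside the gene. In the gcn5 deletion the same genes were covered at 30.1% (HPF1), 31.0% (ADE3), 6.62% (GUT1), 1.87% (ACS1), 18.9% (TKL2), 8.66% (RSC8) and 65.7% (PRB1).

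**Figure D2:**
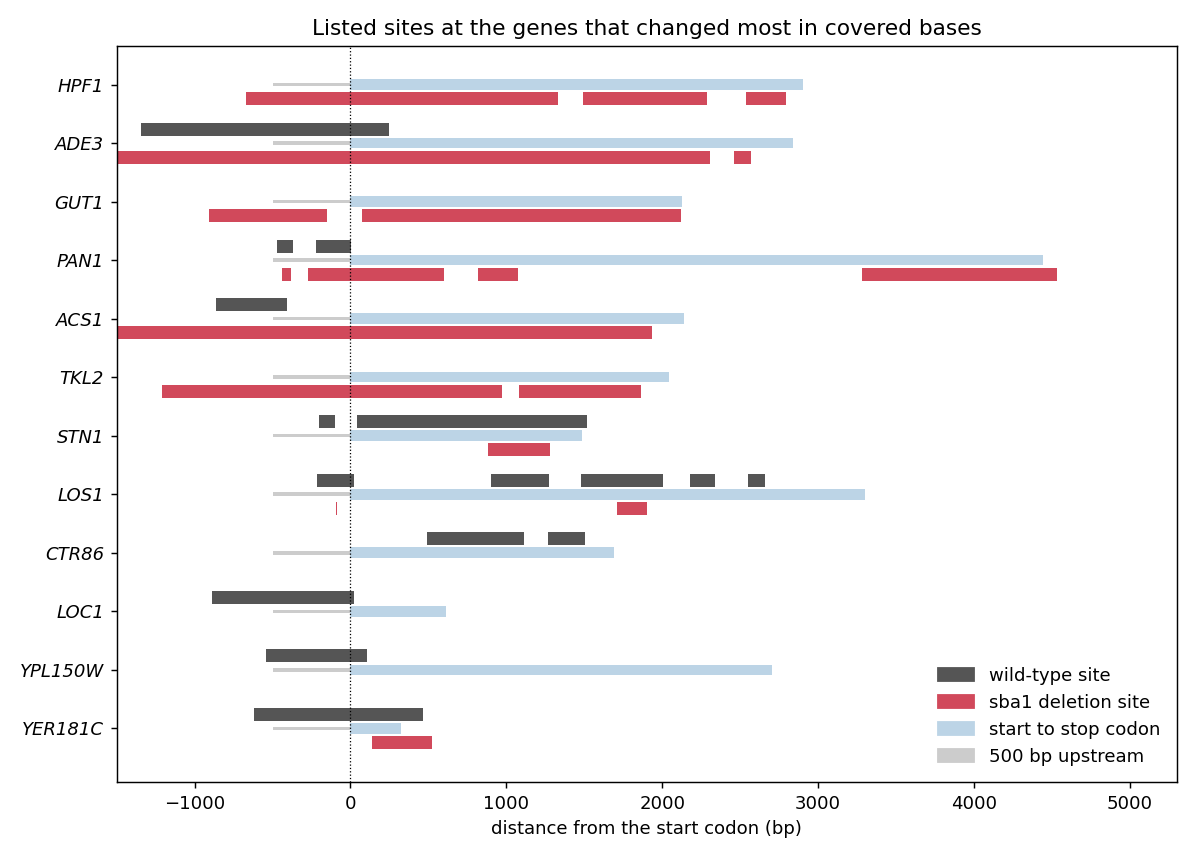
Listed sites at 12 genes by distance in bp from the start codon (x axis), read in the direction of each gene: the first 6 by rise in covered coding bases, the first 3 by fall in them and the first 3 by fall in promoter bases outside coding sequence. Grey bars above each gene are wild-type sites, red bars below it sba1 deletion sites, blue the span from start to stop codon; the sba1 deletion sites of ADE3 and ACS1 run past the left edge. The red sites at HPF1, ADE3, ACS1 and TKL2 cross the start codon, while LOC1 and CTR86 have no red site.

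The decreases were smaller. STN1, which caps telomere ends, had the largest, from 1440 to 397 bp, as a wild-type site of 1476 bp at chromosome IV 610486 to 611961 gave way to one of 397 bp. LOS1, a transfer RNA exporter, had 4 wild-type sites within the gene and 1 across its start. In the sba1 deletion 1 site of 193 bp was left in the gene, and coverage was 36.1% in wild type and 5.84% there. CTR86 went from 50.9% to 0% with no promoter site in either list, and ECM9 from 67.0% to 0% with its window going from 292 to 0 bp. DPP1, a lipid phosphatase gene, went from 86.3% to 1.26% but kept 411 of 500 bp of its promoter window. In long genes the same number of bases is a small share: NUP192, a nuclear pore subunit, went from 16.5% to 0%, SIP3 from 20.1% to 0%, CDC25, which activates Ras, from 14.6% to 0%, and HIR3, a repressor of histone genes, from 14.9% to 1.35%. RIT1, which modifies the initiator transfer RNA, went from 44.7% to 0%, AVL9 from 28.5% to 0.479% and MON2 from 19.1% to 5.50%. At NUP192, SIP3, CDC25, HIR3, RIT1 and AVL9 each wild-type site was under 1 kb wide, and there were more of them than in the sba1 deletion. MON2 had 3 in each list. In the gcn5 deletion, against the same wild-type list, each gene named in this paragraph was also covered less than in wild type. Coverage there was 54.6% at STN1, 31.1% at LOS1, 32.7% at CTR86, 3.88% at ECM9, 66.3% at DPP1, 16.7% at RIT1 and 8.45% at AVL9.

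Genes with higher coding coverage differed in how the site lay on them. For 147 of the 394, or 37.3% (32.5 to 42.3), the site with the largest overlap spanned the whole gene, with a median site width of 1831 bp. For 123 it crossed the start codon only, for 86 the stop codon only, and for 38 it lay inside the gene. Sites that spanned a gene or crossed its start mostly overlapped a wild-type site somewhere along their length, at 75.5% and 54.5% of these genes. Sites inside the gene did so at 13.2%. In all, 345 distinct sites lay behind the 394 genes, so several genes share one. Gene length bears on these counts: with genes cut into 4 classes of near-equal size, 11.1% of those of 51 to 711 bp passed 50 points and 1.20% of those of 1878 bp and over. In bases the order was not the same, with the sba1 deletion mean above wild type by the most in genes of 1203 to 1875 bp, at 163 against 79.0 bp. The 49 genes with lower coverage were mostly short, with a median length of 321 bp against 822 bp for the 394.

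The promoter and the coding sequence tended to change together. Among the 672 genes that gained a promoter site, coding coverage was higher by 50 points or more at 155, or 23.1% (19.9 to 26.4), and lower at 1, YBL028C. Among the 1648 that kept a site it was higher at 172, or 10.4% (9.002 to 12.01), and lower at 12. Among the 947 that lost a site it was higher at 10, or 1.06% (0.508 to 1.93), and lower at 25. Mean coding coverage went from 3.88% to 29.2% at gained promoters, from 19.1% to 29.6% at kept ones and from 7.58% to 3.35% at lost ones. The window and the gene adjoin, so 1 site can enter both counts. The 10 genes whose promoter emptied while the gene filled are MET8, MHR1, YDR344C, SNP1, URA8, NNF1, ELP6, PHO23, MSO1 and TAT2, named after their values were seen. MET8, an enzyme of siroheme synthesis, went from 311 to 0 bp in the window and from 14.4% to 77.0% in the gene. TAT2, the tryptophan permease, went from 236 to 0 bp and from 0% to 64.2%.

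**Figure D3:**
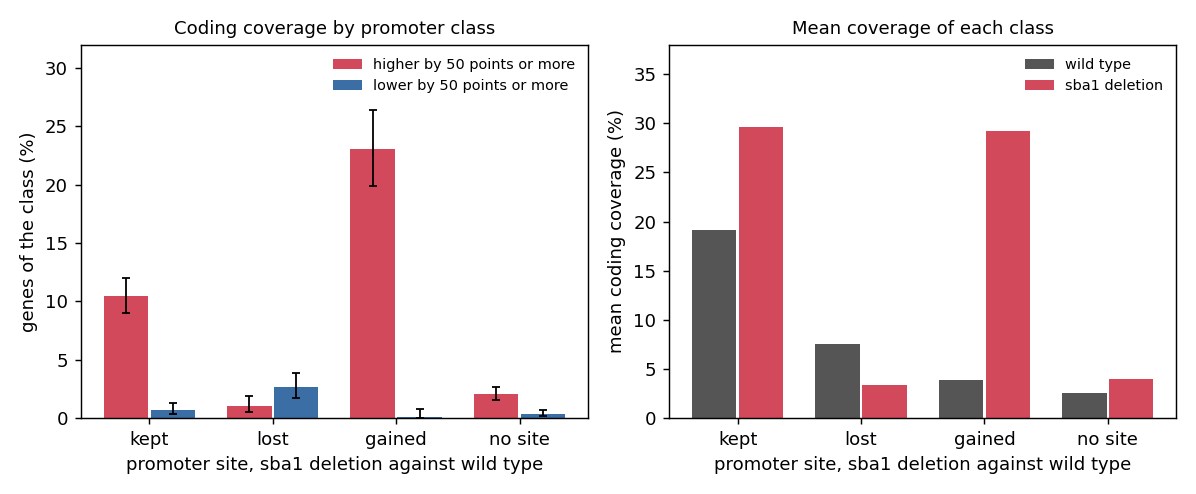
Left, percentage of genes (y axis) whose coding coverage was higher (red) or lower (blue) by 50 points or more, by what became of the promoter site (x axis); lines are exact binomial 95% intervals over genes. Right, mean coding coverage in percent of the same classes in wild type (grey) and the sba1 deletion (red). Genes that gained a promoter site stand at 23.1% higher and those that lost one at 1.06%.

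Among the genes of Hsp90 and its co-chaperones, Sba1 and its partners, coding coverage was higher at 4, lower at none and equal at 10 of 14, while promoter sites were both lost and gained. The 4 include SBA1 itself, the deleted gene, which went from 0% to 1.84%, and AHA1, which went from 44.9% to 55.8%. The genes of Hsp90 itself, HSP82 and HSC82, had no site in window or coding sequence in either list. Wild type had a promoter site at 6 of the 14 genes, SBA1 included; 4 of these lost it, where 36.5% did over all genes, and 2 of the other 8 gained one. STI1, which links Hsp70 to Hsp90, went from 174 to 0 bp in its window and CDC37, which brings kinases to Hsp90, from 171 to 0 bp. HCH1, an activator of the Hsp90 ATPase, went from 0 to 416 bp and the cyclophilin gene CPR6 from 0 to 200 bp. Only 108 bp of the first and 119 bp of the second lay outside any coding sequence. In the gcn5 deletion the windows of STI1 and CDC37 held no site either. Those of HCH1 and CPR6 held none there, as in wild type. TAH1 was the member to pass 50 points in coding coverage, from 0% to 100%. Its partner in the R2TP complex, PIH1, went from 0% to 48.9%. The mean difference over the 14 was 11.5 points against 5.64 over all genes, and the median was 0 in both.

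Of the 20 lists, glycolysis and fermentation had the largest share of genes with higher coding coverage. Of 25 glycolysis and fermentation genes, 8 or 32% passed 50 points upward, where 6.56% of all genes did, and coverage was higher at 20 and lower at 1. Their median difference was 34.0 points against 0 over all genes. ADH1, the main alcohol dehydrogenase, went from 16.0% to 100%, and PYK2, the minor pyruvate kinase, gained a full 500 bp window. ENO1, HXK1 and HXK2 also went from 0 to 500 bp of window. In the gcn5 deletion, against the same wild-type list, the windows of PYK2, HXK2 and HXK1 held 500, 470 and 80 bp. That of ENO1 held no site there, and ADH1 was covered at 51.3%. Of the 14 wild-type promoter sites in the list, 1 was lost, where 36.5% were over all genes. Of the 11 genes without one, 7 gained one, where 19.7% did over all genes. The TCA cycle list of 19 genes had 3 past 50 points and a median difference of 8.88 points. MDH1, mitochondrial malate dehydrogenase, went from 27.8% to 95.4%, FUM1, fumarase, from 10.4% to 69.3% and IDH1, an isocitrate dehydrogenase subunit, from 5.91% to 61.0%. None of its 12 promoter sites was lost, which allows a share of up to 25.0%.

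Hexose transporter genes, whose products bring in sugar for glycolysis, had few sites in either list. None of 18 passed 50 points, which allows up to 16.7%, and 2 had a promoter site in wild type. HXT3 gained 319 bp of window and went from 5.75% to 0% in the gene. Among the 7 galactose genes, which glucose keeps off, none passed 50 points, which allows up to 42.9%, and both genes without a wild-type site gained one. GAL80, the repressor, went from 0 to 294 bp of window, of which 77 bp lay outside any coding sequence. GAL3 went from 0 to 72 bp under a site scored above 8.61% of the sba1 deletion list, while GAL7 went from 168 to 0 bp. GAL4, the activator, had 52 bp covered in wild type against 500 bp in the sba1 deletion.

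Cell wall, sulfur and amino acid genes also passed 50 points upward at shares above that of all genes. Of 34 cell wall genes, 9 or 26.5% passed 50 points, with KRE1, SPI1 and TIP1 from 0% to 100% and HSP150 from 0% to 97.6%; the median difference was 0. Of 28 methionine and sulfur genes, 5 passed, among them MET28, a cofactor of the pathway's activator, from 2.30% to 100% and MET2 from 0% to 61.4%, with a median of 2.19 points. SUL2, a sulfate permease gene, gained a full window and MET32 lost its site of 295 bp. Of 57 amino acid genes, 8 or 14.0% passed and the median was 0. ILV5 and ILV6, of branched-chain synthesis, went from 5.05% to 93.7% and from 29.1% to 100%, and ARO2, of aromatic synthesis, from 0% to 85.6%. Of 32 general stress genes, 3 or 9.38% passed, near the 6.56% of all genes. In that list 1 of 21 lost a promoter site and 6 of 11 gained one, against 36.5% and 19.7% over all genes. CTT1, the cytosolic catalase, went from 9 to 500 bp of window with its coding coverage at 11.9% and 12.2%. SPL2, a regulator in the phosphate list of 20 genes, went from 0% to 100%, and PHO80, the cyclin of that pathway, from 65.8% to 17.9%.

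Genes of ribosome production had few or no members past 50 points upward. Of 30 ribosome biogenesis genes with a wild-type promoter site, 19 or 63.3% lost it, where 36.5% of all genes did, and 6 of the other 44 gained one. UTP13, MAK21 and BMS1 lost 372, 353 and 348 bp of window. Coding coverage was higher at 2 and lower at 16 of the 74, and GAR1, of the box H/ACA ribonucleoprotein, was the member past 50 points, from 10.8% to 100%. Large-subunit ribosomal protein genes lost 5 of 55 promoter sites, or 9.09%, and small-subunit genes 12 of 44, or 27.3%. None of the 81 and 56 genes passed 50 points upward, which allows up to 3.70% and 5.36%, and 2 and 1 did downward. RPL41A, the shortest of them with 78 coding bases, went from 100% to 0%, RPL40B from 60.4% to 4.90% and RPS1B from 91.8% to 39.1%. RPL12B, RPL27A, RPL31A, RPL33B and RPS0A each gained a full window. In the gcn5 deletion, against the same wild-type list, these windows held 475, 253, 75, 192 and 35 bp. Many of these genes come in near-identical pairs, as do several glycolytic and hexose transporter genes. How the authors placed reads that match both copies is not stated in the labels, so values at such genes are uncertain.

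Proteasome and secretion genes lost promoter sites at shares above the 36.5% of all genes, while their shares past 50 points upward were near the 6.56% of all genes. Proteasome genes lost 10 of 15, or 66.7%, and 3 of 33 genes, or 9.09%, passed 50 points: RPN10 from 7.19% to 100%, PRE6 from 0% to 90.8% and PUP3 from 0% to 90.0%. Secretion and Golgi genes lost 16 of 30, or 53.3%, with 4 of 66, or 6.06%, past 50 points, among them the translocon genes SEC62, from 0% to 83.6%, and SEC61, from 0% to 78.9%. Pheromone response genes lost 8 of 20 promoter sites, or 40%, near the share of all genes, and had none past 50 points, which allows up to 11.5%. Genes of the SAGA and NuA4 acetyltransferases lost 3 of 10, or 30%, and SGF29, a SAGA subunit, went from 26.5% to 100%. Of 11 histone genes, none of the 4 with a promoter site lost it, too few genes to bound the share closely. HTZ1, which encodes the variant H2A.Z, went from 1.73% to 36.05%. Of 22 Hsp70 and other chaperone genes, 3 of 11, or 27.3%, lost a promoter site, and the small heat shock gene HSP12 went from 0% to 50.9%. The members of all these lists were chosen with earlier results of these data known, so the counts describe the lists.

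**Figure D4:**
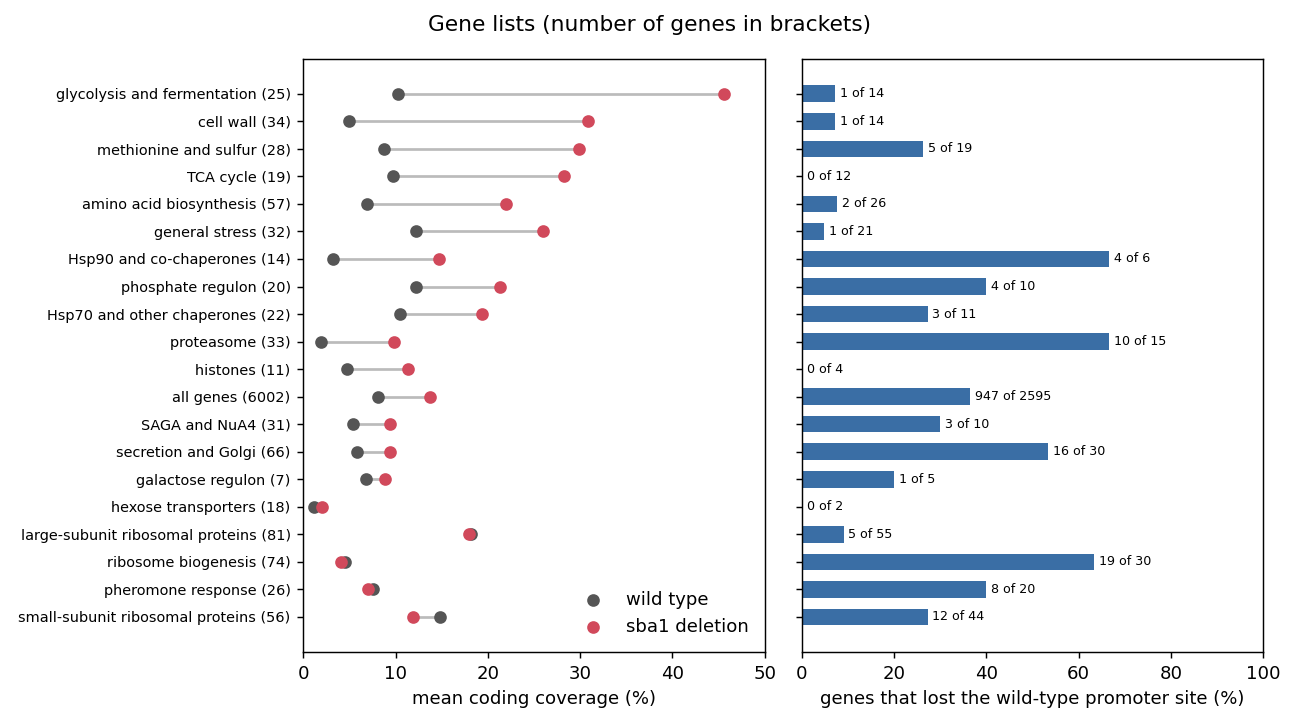
Left, mean coding coverage in percent (x axis) of each gene list in wild type (grey) and the sba1 deletion (red), 1 library each, with the number of genes in brackets and lists ordered by the difference. Right, percentage of genes with a wild-type promoter site that lost it, with the counts. Glycolysis and fermentation genes show the widest gap on the left, from 10.3% to 45.6%, and the proteasome and ribosome biogenesis lists lost 66.7% and 63.3% of their promoter sites.

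The chromosomes were not alike. The share of genes with coding coverage higher by 50 points or more was highest on chromosome III, at 13.1%, and on chromosome I, at 11.7%, which are among the shortest. It was lowest on chromosome IV, the longest, at 3.52%. Across the 16 chromosomes the share was lower the longer the chromosome, with Spearman's rho -0.86 and Pearson's r -0.89, given as a description over chromosomes of 1 pair of libraries. The share of genes that gained a promoter site behaved alike, with rho -0.88, from 36.2% on chromosome I to 12.6% on chromosome XVI. The share that lost one went the other way and less closely, with rho 0.50. The ratio of mean coding coverage to wild type had rho -0.68.

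On the 6 shortest chromosomes, I, III, V, VI, VIII and IX, 127 of 1186 genes, or 10.7% (9.01 to 12.6), passed 50 points, against 267 of 4816, or 5.54% (4.91 to 6.23), on the other 10. The grouping was made after the values were seen. Mean coding coverage was 9.18% in wild type against 19.2% in the sba1 deletion on the short chromosomes, and 7.80% and 12.4% on the others. Genes with a promoter site went from 41.5% to 42.8% on the short chromosomes and from 43.7% to 37.6% on the others. Genes on the short chromosomes were a little shorter, with a median of 1120.5 bp against 1218 bp. Nearness to chromosome ends moved the other way, with 4.38% (2.41 to 7.23) of 320 genes within 25 kb of an end past 50 points and 6.69% (6.05 to 7.37) elsewhere. In the gcn5 deletion, against the same wild-type list, 1.52% of genes on the short chromosomes and 0.374% on the others passed.

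**Figure D5:**
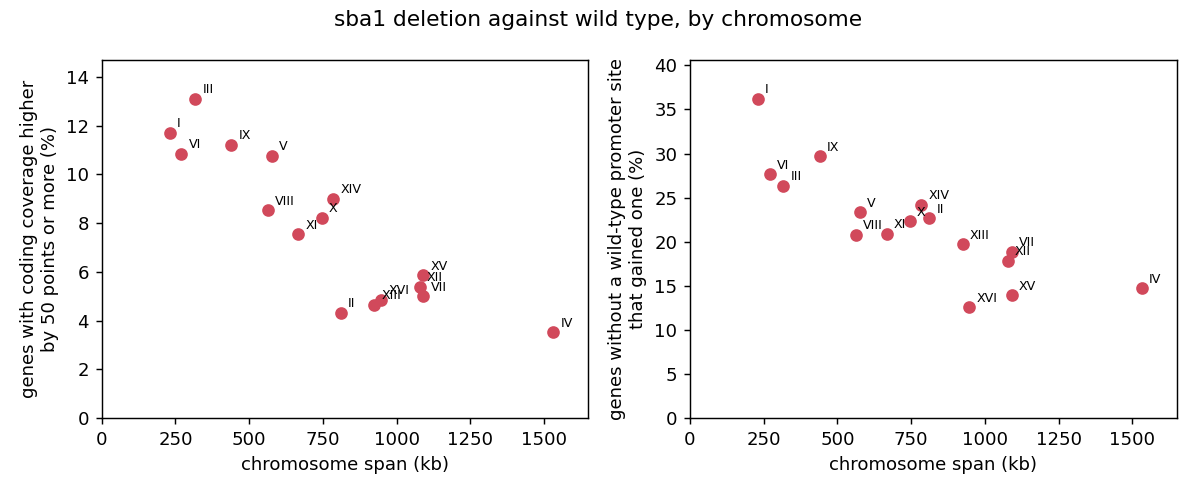
Each point is 1 of the 16 chromosomes, by its span in kb (x axis): left, the percentage of its genes with coding coverage higher by 50 points or more in the sba1 deletion; right, the percentage of its genes without a wild-type promoter site that gained one. Both are lower on the longer chromosomes: the lowest point on the left is chromosome IV, at 3.52%, and on the right chromosome XVI, at 12.6%.

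Neighbouring genes often changed together, since a window or a wide site can belong to both. Of 738 divergent gene pairs with starts up to 500 bp apart, 186 kept a promoter site at both genes, 108 lost it at both, 74 gained one at both and 324 had none. The remaining 46 differed between the genes. Genes with a divergent upstream neighbour lost the site at 32.4% (30.0 to 34.8) and gained one at 23.2% (21.2 to 25.3). Genes with a tandem neighbour lost it at 41.9% (39.0 to 44.9) and gained one at 16.6% (14.9 to 18.4). The longest run of adjacent genes that gained a promoter site was 8, on chromosome XIV from ARC35 to MVD1 (693019 to 703085). The longest that lost one was 6, on chromosome XII from SEC22 through the condensin gene YCS4 to the replication helicase gene MCM5 (680200 to 693882). Runs with higher coding coverage were short, and the longest held 4 genes, one on chromosome VI from YFR035C to RSC8 and one on chromosome XI from YKR045C to FMP46, which includes the histone chaperone gene NAP1. Of the 394 genes, 132 or 33.5% lay in a run of 2 or more.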

How the data were processed

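DNase-seq lists of hypersensitive sites were used, 1 list and 1 library per strain. The submitters' processing notes name Bowtie 0.12.7 and the build sacCer3. Which peak caller and threshold were used is not given here. The score that the authors deposited for each site has no stated scale and was used only to rank sites within a list. Positions are 1-based. Read depth is unknown, so intervals are exact Clopper-Pearson 95% intervals over genes covering counting error alone. For a share of 0 the limit shown is 3 counts of the total, which is not an exact limit and is rough for small lists.

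Groups follow the genotype label. Genes came from RefSeq's R64 table, taken as the sacCer3 sequence, with strand read from systematic names. A promoter site was an overlap of at least 1 bp with the 500 bp upstream of the start codon, clipped at chromosome ends; the window can reach into a neighbouring gene. Coding coverage was called changed at 50 percentage points. No test between strains was run. The bases under sites were checked on simulated data. Chromosome span is the last gene or site end.

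Named genes are the strain checks, the 12 largest rises and falls in covered coding bases, the 10 largest rises and falls in promoter bases outside coding sequence (ties by score), up to 4 members of each list by either change, and the longest runs. Some genes these rules name are not reported here. All 521 names in the 20 lists, beside name patterns for ribosomal proteins, matched. Members, lists and rules were chosen with earlier results of these data known. The planned search for promoter motifs needs sequence and was not analysed here. Tables were made with pandas 2.3.3 and scipy 1.17.1 under Python 3.11.15, and plots with matplotlib 3.10.9.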

Additional observations from a re-analysis of the deposited data

Results flagged for a closer look

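The sba1 deletion and the gcn5 deletion stood on opposite sides of their shared wild-type list in 2 measures, and this difference was not tested, since no strain has a replicate. Relative to wild type, genes carrying a promoter site fell by 275 without SBA1, while without GCN5 they were 42 more. The first direction turned with equal numbers of best-scored sites, where a promoter site lay at 2180 genes of wild type and at 2320 without SBA1. It held in other settings, but barely with the better-scored 50% of each list, at 1646 genes in wild type and 1626 without SBA1. With the site midpoint required in the window, the counts were 1910 in wild type and 1280 without SBA1. With sites over 1 kb left out they were 2200 and 1439. None of these settings made the numbers of sites equal. Without SBA1, 367112 more coding bases lay under sites; without GCN5 their number fell by 5869. The first of these directions held with equal numbers of best-scored sites, at 427271 coding bases in wild type and 832354 without SBA1. It turned with every site set to 250 bp, at 309160 coding bases in wild type and 280195 without SBA1. That setting left the numbers of sites unequal, so it cannot separate site width from site number. The gcn5 deletion was not recomputed under these settings.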

How the results depend on the processing

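The number of genes that lost a promoter site, 947, stayed within 1.5 times in all 11 alternatives (658 to 1271), and the number that gained one, 672, in 10 of 11. The share of wild-type promoter sites lost, 36.5% as reported, ranged from 30.2% with equal numbers of best-scored sites to 57.8% with sites over 1 kb left out. With equal numbers of best-scored sites 658 were lost and 798 gained, so that net direction turned. With the site midpoint required in the window, 437 genes gained a site. Counts and ratios of covered bases depended on wide sites, in settings that left the numbers of sites unequal. With equal numbers of best-scored sites, 405 genes had higher coding coverage and 47 lower, and the ratio of coding bases to wild type was 1.95. With every site set to 250 bp, 55 genes in place of 394 had higher coding coverage, the ratio of coding bases to wild type was 0.906 (1.79 as reported) and that of promoter-window bases 0.669 (1.09 as reported). With sites over 1 kb left out, 156 genes were higher and 97 lower (49 as reported), and these ratios were 1.09 and 0.704. At a threshold of 25 points 716 genes were higher and 146 lower, and at 75 points 208 and 22. The ratio between short and other chromosomes, 1.93, added after seeing the data, lay between 1.40 and 2.10 in 8 alternatives. No paired analysis was possible because each strain has 1 library. Unknown depth limits what an absent site means.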
